A study of Mus musculus with 2 samples.

Results

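The Mir106b and Mir106a clusters are the paralogs of the Mir17 cluster, the microRNA (miRNA) cluster best known for growth and the cell cycle. They hold 9 miRNA genes of the 2202 counted: Mir106b, Mir93 and Mir25 on chromosome 5, and Mir106a, Mir18b, Mir20b, Mir19b-2, Mir92-2 and Mir363 on the X chromosome. The genes were chosen by their symbols in the GENCODE M21 annotation. No level entered that rule, but earlier results of these data were known when it was made. They were followed in whole adrenal glands of male B6CASTF1/J mice aged 2 months, first-generation hybrids of a laboratory strain and a castaneus-derived strain. The 2 libraries form 1 group and come from gland samples numbered as male 3 (replicate 1) and male 4 (replicate 2), called biological replicates in the labels, which give both the same donor entry. No treatment, second tissue or second age is part of the design, so the values show how much each gene gave in this gland and how far the 2 animals differed.

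A miRNA is cut from a hairpin in a longer transcript, and its short mature strand guides a silencing complex to messenger RNAs. Target choice rests mainly on the seed, bases 2 to 8 of the mature strand, so miRNAs with the same seed are counted as 1 family. The vertebrate clusters of this kind are thought to have arisen by duplication, and each carries several seed families side by side. The Mir106b cluster lies in the gene of Mcm7, a subunit of the helicase that opens DNA for replication, and is active in many proliferating tissues. The Mir106a cluster is best known from embryonic cells and from blood cell tumours.

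The mature strands that carry the family seeds are shown because the seeds sort the 9 genes into 4 families across both loci. They are RefSeq sequences (GRCm38.p6), which matched all 9 genes, written 5′ to 3′ with the seed in capitals. The first family, with the seed of miR-17, has 2 members in each cluster.
miR-106b-5p: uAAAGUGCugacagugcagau
miR-93-5p: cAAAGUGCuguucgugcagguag
miR-106a-5p: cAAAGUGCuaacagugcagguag
miR-20b-5p: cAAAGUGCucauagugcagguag
The second family has the seed of miR-25 and miR-92a, with Mir25 in the Mcm7 cluster and a pair of genes on the X chromosome.
miR-25-3p: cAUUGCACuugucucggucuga
miR-92a-3p (Mir92-2): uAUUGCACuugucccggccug
miR-363-3p: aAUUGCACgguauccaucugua
The families of miR-18 and miR-19 are found on the X chromosome but not in the Mcm7 cluster.
miR-18b-5p: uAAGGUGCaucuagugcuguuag
miR-19b-3p (Mir19b-2): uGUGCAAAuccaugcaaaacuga

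Several of these products are near copies of products of the Mir17 cluster on chromosome 14. Positions are counted from 1 at the 5′ end of the mature strand. miR-106a-5p differs from miR-17-5p by U10A alone, over 23 bases. miR-20b-5p differs from miR-20a-5p by U1C and U10C, and miR-18b-5p differs from miR-18a-5p by A18U and A20U. The mature strand of Mir19b-2 is identical to that of Mir19b-1, and that of Mir92-2 to that of Mir92-1. For these twins no base differs within the mature strand, as the next lines show from the first mature base to 4 bases past the last, with the bases that differ in capitals.
Mir92-1: uauugcacuugucccggccugUUga
Mir92-2: uauugcacuugucccggccugAGga
Mir19b-1: ugugcaaauccaugcaaaacugaCugu
Mir19b-2: ugugcaaauccaugcaaaacugaUugu
The first base that differs is number 22 for the Mir92 twins and number 24 for the Mir19b twins. The deposited tables hold reads aligned to several places in a row of their own. A read of the annotated mature strand, 21 bases for the Mir92 twins and 23 for the Mir19b twins, ends before those bases. It fits both twins equally, so the counts of Mir92-2 and Mir19b-2 leave out such reads. Which reads of these genes were assigned cannot be seen in gene counts. The longest stretch shared with any other miRNA gene was 25 bases for Mir19b-2 and 22 for Mir92-2, against 17 for Mir18b and 13 or 14 for the other 6 genes.

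Both loci are compact (mm10 coordinates). The Mir106b cluster spans 498 bases of the minus strand of chromosome 5. Mir106b lies at 138165737 to 138165818, Mir93 at 138165523 to 138165610 and Mir25 at 138165321 to 138165404. All 3 lie in intron 13 of the Mcm7 transcript with 15 exons. Mir93 and Mir25 also lie in exon 1 of an Mcm7 transcript annotated as a retained intron. The Mir106a cluster spans 875 bases of the minus strand of the X chromosome, from Mir106a at 52742503 to 52742567 to Mir363 at 52741693 to 52741767. Between them lie Mir18b (52742331 to 52742413), Mir20b (52742113 to 52742192), Mir19b-2 (52741983 to 52742066) and Mir92-2 (52741838 to 52741928). The annotated end of the long non-coding RNA Kis2 reaches 5 bases into the Mir106a hairpin. The other 5 genes overlap no other annotated gene. Gaps between neighbouring hairpins run from 46 to 138 bases. In the deposited tables the genes on chromosome 5 are ENSMUSG00000065514.1 (Mir106b), ENSMUSG00000065527.1 (Mir93) and ENSMUSG00000065394.1 (Mir25). Those on the X chromosome are ENSMUSG00000065456.1 (Mir106a), ENSMUSG00000077111.2 (Mir18b), ENSMUSG00000076041.1 (Mir20b), ENSMUSG00000065473.1 (Mir19b-2), ENSMUSG00000065613.1 (Mir92-2) and ENSMUSG00000070106.1 (Mir363).

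Levels are given as CPM, the counts on the gene's own strand per 1000000 counts at miRNA genes. Replicate 1 held 5752428 such counts and replicate 2 held 3333149, so 1 count weighs more in replicate 2. A count of 0 was given a chosen limit of 3 counts, which is 0.522 CPM in replicate 1 and 0.900 CPM in replicate 2. Genes were called detected when each library gave at least 2 CPM, which 372 of the 2202 genes reached. The mature strands shown are 21 to 23 bases long, and reads were taken to span them, which gene counts cannot show. CPM are therefore compared between genes as they are, and values per hairpin length are added where they change the order. Counts are per gene and do not separate the arms of a hairpin. Of the marker genes of the gland, Mir375 and Mir7b, typical of neuroendocrine cells, summed to 72445 CPM in replicate 1 and 51056 in replicate 2. Nearly all of this was Mir375 (68780 and 46236 CPM), while Mir7b had 3666 and 4819 CPM. A set of 4 genes reported for steroid-producing tissue summed to 2195 and 3054 CPM. Of these, Mir132 had 1416 and 1449 CPM, Mir214 734 and 1504, Mir212 36.7 and 87.6, and Mir202 8.69 and 13.2. None of the 23 markers used here was at 0 in either library.

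The Mir106b cluster was well counted in both animals, and its middle gene led. Mir93 had 10478 counts (1821 CPM) in replicate 1 and 6857 counts (2057 CPM) in replicate 2, with a mean of 1939 ± 167 CPM (SD, n = 2). It ranked 52nd of all miRNA genes by mean CPM. Mir106b, which shares the seed of Mir93, had 3435 counts (597 CPM) and 2702 counts (811 CPM), a mean of 704 ± 151 CPM and rank 95. Mir25, whose seed is that of miR-92a, had 999 counts (174 CPM) and 672 counts (202 CPM), a mean of 188 ± 19.8 CPM and rank 154. All 3 were higher in replicate 2 by CPM and above the median of detected genes, 86.8 CPM. The values of any 2 of these genes did not overlap, and the order Mir93, Mir106b, Mir25 held in both animals. The exact permutation test of 2 against 2 values cannot go below a two-sided p of 0.333, so no pair of genes was tested.

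The spacing between the 3 genes was steadier for 1 pair than for the others. Mir93 exceeded Mir25 10.5-fold in replicate 1 (95% Clopper-Pearson interval 9.83 to 11.2) and 10.2-fold in replicate 2 (9.43 to 11.1), or 3.37 ± 0.03 on the log2 scale (mean ± SD, n = 2). Mir93 exceeded Mir106b 3.05-fold (2.93 to 3.17) and 2.54-fold (2.43 to 2.65), or 1.48 ± 0.19 on the log2 scale. These intervals do not overlap, and Mir106b was nearer to Mir93 in replicate 2. Mir106b exceeded Mir25 3.44-fold and 4.02-fold. Each interval covers the counting error of 1 library, not the spread between animals, and takes reads as independent. These reads carry no molecular identifiers and are not independent molecules, so the intervals may be too narrow.

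The X-linked cluster was counted at a far lower level, and 4 of its 6 genes were detected. By assigned reads Mir92-2 led, with 280 counts (48.7 CPM) in replicate 1 and 169 counts (50.7 CPM) in replicate 2. The values of the 2 libraries nearly coincide, with a mean of 49.7 ± 1.43 CPM and rank 220. Mir20b had 82 counts (14.3 CPM) and 75 counts (22.5 CPM), a mean of 18.4 ± 5.83 CPM. Mir363, the last gene of the cluster and the gene with no counterpart in the Mir17 cluster, had 51 counts (8.87 CPM) and 67 counts (20.1 CPM), a mean of 14.5 ± 7.94 CPM. It had more counts in the smaller library, alone among the 9 genes. Mir106a, the first gene, had 78 counts (13.6 CPM) and 41 counts (12.3 CPM), a mean of 12.9 ± 0.890 CPM.

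The remaining genes of the X-linked cluster were at the limit of detection. Mir18b had 2 counts in replicate 1, or 0.348 CPM (95% interval 0.0421 to 1.26), and 0 in replicate 2 (95% interval up to 1.11 CPM). Mir19b-2 had 1 count in replicate 1 (0.174 CPM) and 0 in replicate 2. No level could be measured for them from these counts. Mir19b-1, the twin of Mir19b-2, had 4 and 3 counts, also under 2 CPM. The single read on the opposite strand over all 9 genes was at Mir25 in replicate 1.

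**Figure D1:**
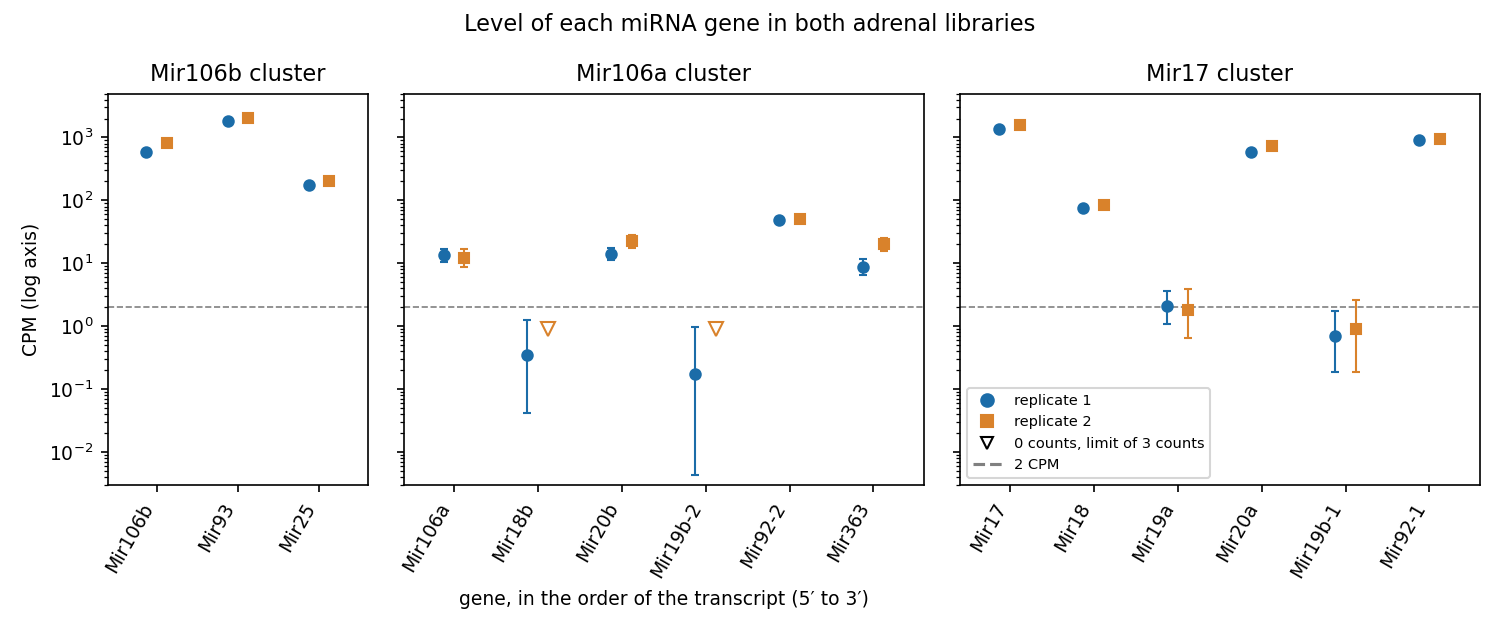
CPM on a log axis for each gene of the 3 clusters in transcript order, with circles for replicate 1, squares for replicate 2 and 95% Clopper-Pearson intervals as bars; open triangles mark the limit for 0 counts and the dashed line 2 CPM. The Mir106b cluster peaks at Mir93, and the Mir106a cluster stays at or below 50.7 CPM, with Mir18b and Mir19b-2 under the dashed line.

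In the order of the 9 genes by mean CPM, Mir93, Mir106b, Mir25, Mir92-2 and Mir20b followed each other. Each of the first 4 exceeded the next without overlap between the animals. Mir363 was not told apart from Mir20b or from Mir106a. Mir20b lay above Mir106a in both animals, 1.05-fold in replicate 1 (95% interval 0.762 to 1.45, which includes equal counts) and 1.83-fold in replicate 2 (1.23 to 2.75). Mir20b exceeded Mir363 1.61-fold in replicate 1 and 1.12-fold in replicate 2, and their values overlapped. Mir363 and Mir106a changed places, since Mir363 had 0.654 times the counts of Mir106a in replicate 1 and 1.63 times in replicate 2. Per hairpin length Mir106a, whose hairpin of 65 bases is the shortest, moved before Mir363, and no other place changed. Mir18b and Mir19b-2 came last and could not be ordered.

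As a whole, the Mcm7 cluster exceeded the X-linked cluster about equally in both animals. The 3 genes of the Mir106b cluster summed to 2592 CPM (replicate 1) and 3069 CPM (replicate 2; mean 2831 ± 337, SD, n = 2), or 0.259% and 0.307% of the miRNA counts. The 6 genes of the Mir106a cluster summed to 85.9 and 106 CPM (95.7 ± 14.0). The ratio was 30.2-fold (95% interval 27.6 to 33.1) in replicate 1 and 29.1-fold (26.1 to 32.4) in replicate 2, or 4.89 ± 0.04 on the log2 scale. Without the genes that carry a copy number, Mir19b-2 and Mir92-2, it rose to 5.96 ± 0.23, as this step takes counts from the X-linked cluster only. Mir92-2 had the most counts of the X-linked genes in both animals. Reads that fit both Mir92 twins were not assigned, and their part in this fold was not tested.

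Set beside the Mir17 cluster, its best counted relative, the Mcm7 cluster was at a similar level by assigned reads. The 6 genes of the Mir17 cluster had 2935 CPM together in replicate 1 and 3340 CPM in replicate 2, with 4 genes detected. They exceeded the Mir106b cluster 1.13-fold in replicate 1 and 1.09-fold in replicate 2, or 0.15 ± 0.04 on the log2 scale. Without the copied genes Mir19b-1 and Mir92-1 the value was -0.35 ± 0.01. That step takes counts from the Mir17 cluster only, so the order of the 2 clusters depends on counting these genes. Reads that fit both Mir92 twins or both Mir19b twins are missing from the sum of the Mir17 cluster. Their part in the ratio of the 2 clusters was not tested. Gene by gene, Mir93 exceeded Mir17 1.33-fold (95% interval 1.29 to 1.36) and 1.31-fold (1.26 to 1.36). Mir106b and Mir20a were close, at 1.02-fold (0.977 to 1.07) in replicate 1 and 1.11-fold (1.05 to 1.17) in replicate 2. Mir25 was the lower of its pair, as Mir92-1 exceeded it 5.17-fold and 4.71-fold.

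By assigned reads, Mir106a, Mir20b, Mir92-2 and Mir18b were each far below their paralogs in the Mir17 cluster, by factors that differed from gene to gene. Mir17 exceeded Mir106a 101-fold (95% interval 81.1 to 128) in replicate 1 and 128-fold (94.1 to 178) in replicate 2. Mir106a thus had 0.986% and 0.783% of the counts of Mir17, from which it differs at 1 base. Sequencing errors in reads of Mir17 cannot be seen in gene counts, and their part in the counts of Mir106a was not tested. Mir20a exceeded Mir20b 40.9-fold (32.8 to 51.5) and 32.5-fold (25.8 to 41.5). Mir92-1 exceeded Mir92-2 18.4-fold (16.4 to 20.9) and 18.7-fold (16.0 to 22.0). Mir18 exceeded Mir18b 222-fold in replicate 1, with an interval of 61.0 to 1835, and at least 95-fold in replicate 2, where Mir18b had no count and was set at 3 counts for this library. The intervals of the Mir92 pair lay below those of the Mir20 pair in both animals, and those of the Mir20 pair lay below those of Mir17 and Mir106a. For the Mir92 pair the ratio and its place among the pairs cover assigned reads only. Reads that fit both Mir92 twins are in neither count. Mir19b-1 and Mir19b-2, with 4 counts against 1 in replicate 1 (4.0-fold, interval 0.396 to 197) and 3 against 0 in replicate 2, were too rare to compare.

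**Figure D2:**
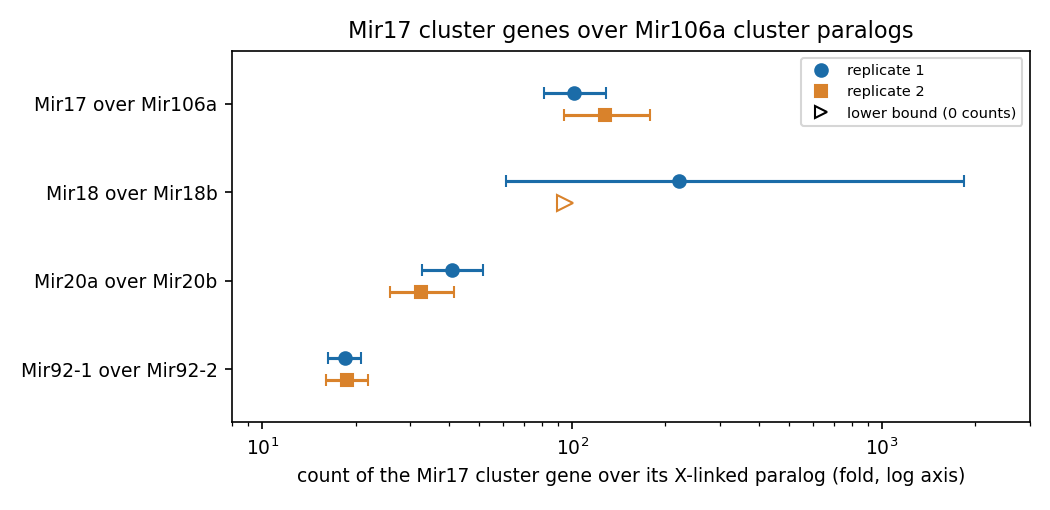
Fold of counts of each Mir17 cluster gene over its X-linked paralog, on a log axis, with circles for replicate 1, squares for replicate 2 and 95% intervals for counting error as bars; the open triangle is a lower bound for a paralog with 0 counts. Mir18 over Mir18b has the highest point, 222 with the widest interval, followed by Mir17 over Mir106a at 101 and 128, while Mir92-1 over Mir92-2 lies at 18.4 and 18.7.

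Summed by seed, the Mcm7 cluster gave most of the counted miR-17 family and a minor part of the miR-25 and miR-92 family. RefSeq lists 7 genes with a mature strand of the miR-17 seed, which together had 4404 CPM in 1 animal (replicate 1) and 5206 CPM in the other. Mir93 and Mir106b held 54.9% (95% interval 54.3 to 55.5) and 55.1% (54.3 to 55.8) of these counts. Mir17 and Mir20a held 44.4% and 44.2%, and Mir106a and Mir20b together held 0.632% (0.538 to 0.737) and 0.669% (0.553 to 0.801). The remaining gene, Mir6383, had no count. The split between loci thus differed by less than counting error between the animals, although Mir106b alone was nearer to Mir93 in replicate 2.

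The family with the seed of miR-25 and miR-92a summed to 1198 and 1307 CPM over 7 genes. Mir25 held 14.5% (13.7 to 15.3) in replicate 1 and 15.4% (14.4 to 16.5) in replicate 2. Mir92-2 and Mir363 held 4.80% (4.31 to 5.33) and 5.42% (4.76 to 6.13), the largest share that the X-linked cluster had among the families with over 100 counts. Mir92-1 held 74.9% and 72.6%. The rest came from Mir32 (38.6 and 52.8 CPM) and Mir92b (30.6 and 33.0 CPM), while Mir367 had no count. Of the miR-18 family, Mir18b held 2 of 445 counts in replicate 1 and 0 of 285 in replicate 2. The miR-19 family had only 17 and 9 counts over its 3 genes, so its split was not measurable. Reads that fit both twins of the miR-92 or miR-19 family are not in these shares.

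**Figure D3:**
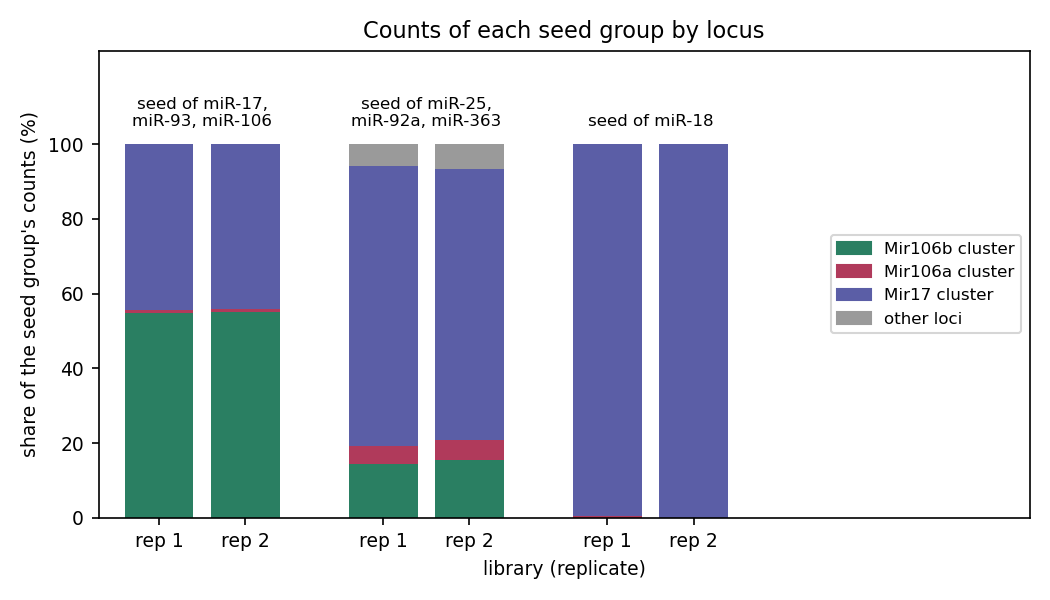
Share of the counts of each seed family (percent) by locus, stacked for each library, for the seeds of miR-17, of miR-25 and miR-92a, and of miR-18. The Mir106b cluster fills 54.9% and 55.1% of the miR-17 family and 14.5% and 15.4% of the miR-25 and miR-92a family, and the Mir106a cluster is the thin band above it.

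Between the animals, Mir106b and Mir363 were lower in replicate 1 beyond counting error, and 5 tested genes were not called. Each gene was compared by a two-sided exact binomial test on the counts of the 2 libraries, with TMM-scaled library sizes and Benjamini-Hochberg adjustment over all 389 genes with 10 or more counts in mean. The test compares these libraries and not conditions, and it takes reads as independent, so its p may be too small. Mir18b and Mir19b-2 did not reach that count and were not tested. Mir363 had a log2 ratio of replicate 1 over replicate 2 of -0.98 (SE of counting 0.27), with an adjusted p of 0.000479 in the exact binomial test. Mir106b had -0.24 (SE 0.04), with an adjusted p of 2.39e-10 in the same exact test. Of the 7 tested genes 2 were called lower and 0 higher, where 28.8% of all tested genes were lower and 30.8% higher, 59.6% in all. Calls were thus not more frequent among the members than over all genes.

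The other tested genes had log2 ratios of 0.02 (Mir93), -0.02 (Mir25), 0.33 (Mir106a), -0.46 (Mir20b) and 0.14 (Mir92-2). Their adjusted p in the exact binomial test ran from 0.0799 for Mir20b to 0.895 for Mir25. The median over the 7 genes was -0.02, beside 0.01 over all tested genes. Their median distance from 0 was 0.24, beside 0.40 over all tested genes. Of the 389 genes 59 were at least as far from 0 as Mir363, and 263 at least as far as Mir106b. In bulk tissue, fewer cells that make a miRNA and less of it per cell cannot be told apart.

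The scaling decided several of these calls. TMM raised each log2 ratio by 0.20 over its value from unscaled library totals. With those totals 5 of the 7 genes were lower in replicate 1 (Mir93, Mir106b, Mir25, Mir20b and Mir363) and 0 higher, where 43.7% of all tested genes were lower and 21.9% higher, 65.6% in all. Mir93 then had -0.18 and Mir92-2 -0.06, which turned their sign, and the median over the 7 genes was -0.22, beside -0.19 over all tested genes. Mir106b and Mir363 were lower under TMM, DESeq2 size factors and total counts alike. With DESeq2 size factors these 2 were the genes called, where 28.3% of all tested genes were lower and 30.8% higher, 59.1% in all. When edgeR's exact test was given the common dispersion of these 2 libraries, estimated by treating them as replicates, a coefficient of variation of 0.361, it called 0 of the 7 genes, 0 had an unadjusted p below the threshold of 0.05, and 1.03% of all tested genes were called (0.771% higher and 0.257% lower).

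**Figure D4:**
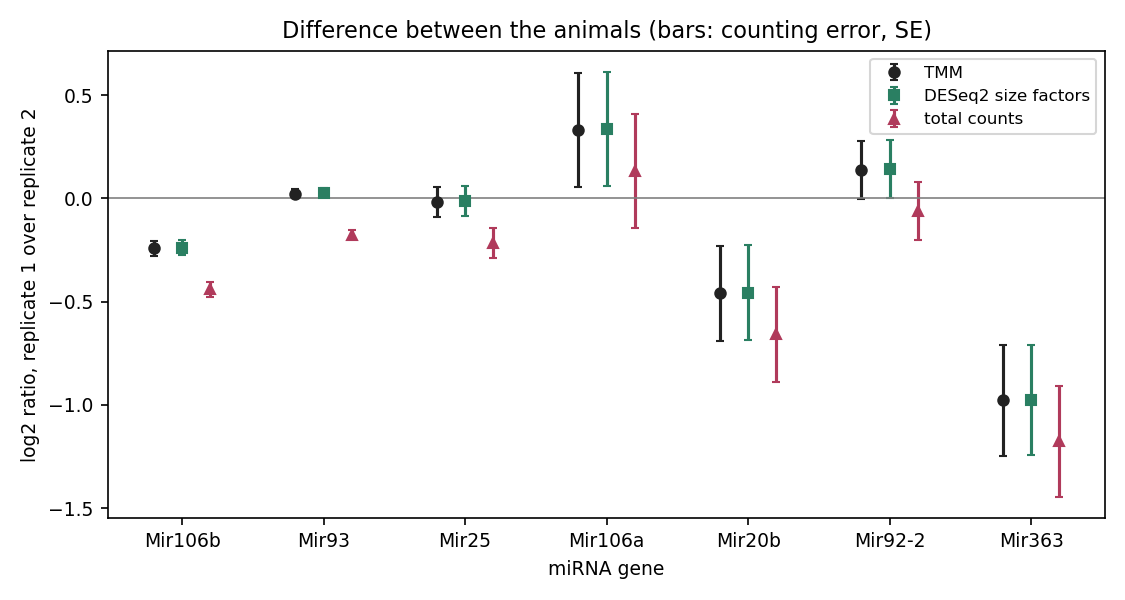
Log2 ratio of replicate 1 over replicate 2 for the 7 tested genes under TMM, DESeq2 size factors and total counts, with the SE of counting as bars. Mir106b and Mir363 lie below 0 under all 3 scalings, while Mir93 and Mir92-2 change sign with total counts.

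The same comparison in the relatives was small as well. Of the 4 tested genes of the Mir17 cluster, Mir20a was lower in replicate 1 (log2 ratio -0.13, adjusted p of 0.00165 in the exact binomial test) and Mir92-1 was higher (0.12, adjusted p of 0.000502). Mir92-1 turned to -0.08 by total counts and was then called lower. Mir17 (0.01) and Mir18 (0.05) were not called, nor was Mir32 (-0.25), a relative of Mir25. By total counts Mir17 (-0.19), Mir20a (-0.33) and Mir32 (-0.45) were called lower and Mir18 (-0.15) was not.

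Markers of other cells also differed between the animals. The erythroid genes Mir451a, Mir144 and Mir486 had a summed level of 22813 CPM in replicate 1, against 901 CPM in replicate 2. The 5 white blood cell genes summed to 2956 and 3251 CPM, of which Mir223 had 36.7 and 159 CPM, Mir150 688 and 901, Mir146 1522 and 1474, Mir142 391 and 391, and Mir155 318 and 326. Mir122 of liver had 690 and 1331 CPM, and the kidney genes Mir192 and Mir204 summed to 63.3 and 106 CPM. The 3 striated muscle genes summed to 708 and 453 CPM but moved in opposite directions, with Mir206 at 81.7 and 389 CPM, Mir499 at 423 and 23.1, and Mir208b at 204 and 40.8. Mir126a of endothelium had 69154 and 65133 CPM, and Mir143 and Mir145a of smooth muscle summed to 32759 and 33318 CPM. Nearly all of that sum was Mir143 (31774 and 31884 CPM), while Mir145a had 984 and 1434 CPM. The part of these cells in the differences of Mir106b and Mir363 was not tested.

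Among the other miRNA genes, those nearest in level over the 2 libraries were found for the 4 members with 100 or more counts in mean, by Euclidean distance of log2(CPM + 1). Nearest to Mir93 were Mir615 (1704 and 2017 CPM, distance 0.10) and Mir100 (2042 and 2196 CPM, distance 0.19). Nearest to Mir106b were Mir425 (649 and 861 CPM, distance 0.15) and Mir532 (677 and 837 CPM, distance 0.19). Mir25 lay next to Mir152 (distance 0.05) and Mir196a-2 (distance 0.14), and Mir92-2 next to Mir7j (distance 0.05) and Mir362 (distance 0.09). With 2 libraries this likeness describes levels only.

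**Figure D5:**
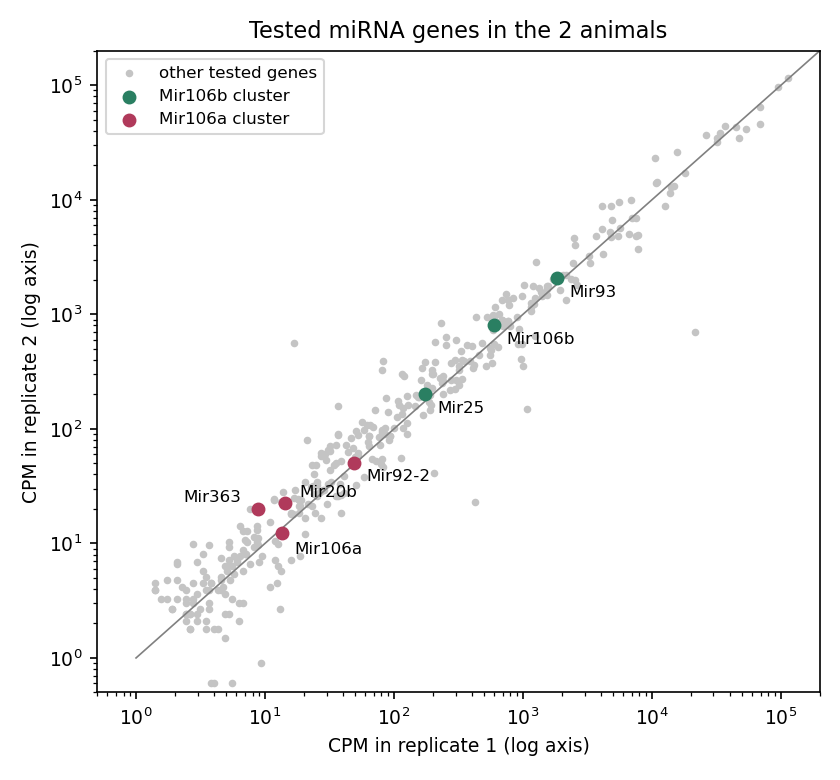
CPM in replicate 1 (x) against replicate 2 (y) for the 389 tested miRNA genes, on log axes, with the line of equal CPM; the Mir106b cluster genes and the tested Mir106a cluster genes are coloured and named. The 3 genes of the Mcm7 cluster lie on or above the line between 174 and 2057 CPM, and Mir20b and Mir363 also lie above it.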

How the data were processed

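Small RNA under 30 nt from total RNA of 2 adrenal glands was sequenced, per the labels, as 1 library each. The authors deposited raw counts of reads for each miRNA gene (mm10, GENCODE M21, per the text files beside the tables). No aligner or trimming step is named in the sources used here. Of the 3 count columns, the one that matches each gene's own strand was taken. The 4 rows that name no gene (66.2% of reads in replicate 1, 69.0% in replicate 2) were left out of library sizes. Reads aligned to several places made up 39.4% and 41.2% of aligned reads.

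CPM, exact Clopper-Pearson intervals at 95%, and log2 ratios with 0.5 counts added were computed with Python 3.11.15, SciPy 1.17.1 and pandas 2.3.3. TMM and the common dispersion came from edgeR 4.0.16, size factors from DESeq2 1.42.0, in R 4.3.3. With 1 group no quasi-likelihood test was possible. The exact binomial test was checked on simulated counts of independent reads only, so the check does not cover further spread between libraries. Sequence shared with other genes was searched among GENCODE miRNA transcripts, not the genome. Named genes are the members, the Mir17 cluster, seed relatives, markers and the 2 nearest genes of each member with 100 or more counts. Mir92b and Mir6383 were added by seed. The members and lists were chosen with earlier results of these data known.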

Additional observations from a re-analysis of the deposited data

How the results depend on the processing

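All 7 detected members were also detected at limits of 1 and 5 CPM, with other denominators and in each library alone. Counted without regard to strand, the sums were 3359 CPM for the Mir106b cluster and 114 CPM for the Mir106a cluster. The counts of the members were the same there, apart from 1 read at Mir25 in replicate 1. The totals at miRNA genes were smaller, 4746565 in replicate 1 and 2860247 in replicate 2. Scaled to reads aligned to 1 place the sums were 2249 and 76.0, and without the 10 most abundant genes in the denominator 6708 and 227. With 1 library left out, the sums ran from 2592 to 3069 and from 85.9 to 106 CPM, the log2 ratio of Mir106b over Mir106a cluster from 4.86 to 4.91, and that of Mir17 over Mir106b cluster from 0.12 to 0.18. Without genes that carry a copy number these log2 ratios became 5.96 and -0.35, and per hairpin length the first became 4.81. Members called lower in replicate 1 numbered 2 of the 7 tested, where 28.8% of all tested genes were lower. The number was 5 by total counts, where 43.7% of all tested genes were lower. It was 0 with the common dispersion, where 0.257% of all tested genes were lower. By total counts the log2 ratio of Mir93 turned to -0.18 and that of Mir92-2 to -0.061, and without regard to strand Mir93 turned to -0.0087. The counts of both genes were the same in these settings, and only the scaling of the libraries differed. The value of -0.0087 for Mir93 lay within its SE of counting, 0.022. No paired analysis was possible because there is 1 group, and with 1 library left out no comparison of the animals remains. Mir18b and Mir19b-2 had 3 counts or fewer in each library, so their levels were not measurable; the part of depth and of reads that fit both Mir19b twins was not tested.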
